A study of Homo sapiens with 6 samples.

Results

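The genes described here encode the machinery that moves and anchors mitochondria along microtubules. They were chosen by name: the Miro GTPases RHOT1 and RHOT2, the adaptors TRAK1 and TRAK2, the kinesin-1 heavy chains KIF5A, KIF5B and KIF5C, the kinesin KIF1B and the anchor SNPH. All 9 genes were matched to 1 Ensembl ID each among the 60671 IDs of the count table, and all 9 passed the filter on low counts, as did 33375 genes in all. RNA was precipitated with an antibody against the myc tag from HEK, an established human embryonic kidney cell line, and sequenced in 6 libraries. The 3 control libraries (WT.Control) are labelled untreated, and their source label names RNA binding SYNJ2BP, an outer mitochondrial membrane protein. The source label of the 3 mutant libraries (AAA.mito) names a SYNJ2BP AAA mutant instead. Cells of both groups were transfected with calcium phosphate, and ribosomal RNA was depleted after the precipitation. The labels do not say which residues the mutant changes, what the control cells express, what the term mito means, or whether the libraries came from separate cultures. A p-value here sets a group difference only against the spread of these libraries, which may be technical. The question was which of these mRNAs came down more or less with the mutant. A change in how much of an mRNA the cells held and a change in how much was precipitated cannot be told apart in these libraries.

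Miro proteins sit in the outer mitochondrial membrane and hold TRAK adaptors, which in turn bind the kinesin-1 heavy chains for outward movement and dynein for inward movement. Kinesin light chains serve other cargoes of kinesin-1 and are not needed for the link through TRAK. KIF1B is a kinesin-3 motor with a mitochondrial isoform, and SNPH (syntaphilin) docks axonal mitochondria to microtubules. In neurons this machinery sets where mitochondria are found, and Miro is a substrate of the PINK1 and Parkin pathway that halts and removes damaged mitochondria.

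The members come from families of related genes, so it matters whether a read can tell them apart. The coding sequences below, taken from GENCODE release 29 transcripts (GRCh38), are shown because each holds the longest exact stretch that a pair of related genes has in common, printed in capitals with 20 bases of flank on either side.
RHOT1 (+ strand, exon 18, chr17:32208132-32208184): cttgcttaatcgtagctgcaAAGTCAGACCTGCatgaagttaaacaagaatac
RHOT2 (+ strand, exon 7, chr16:670254-670306): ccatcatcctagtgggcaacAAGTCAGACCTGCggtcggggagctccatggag
KIF5A (+ strand, exons 4 to 5, chr12:57564154-57564463): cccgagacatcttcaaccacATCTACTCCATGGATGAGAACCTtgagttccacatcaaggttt
KIF5C (+ strand, exons 4 to 5, chr2:148937330-148941613): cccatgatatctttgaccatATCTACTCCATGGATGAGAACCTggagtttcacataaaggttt
KIF5B (− strand, exon 4, chr10:32039329-32039382): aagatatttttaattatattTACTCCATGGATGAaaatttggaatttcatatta
KIF1B (+ strand, exons 5 to 6, chr1:10267499-10268153): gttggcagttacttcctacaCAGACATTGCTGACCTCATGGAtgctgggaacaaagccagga
KIF1C (+ strand, exons 7 to 8, chr17:5002583-5002732): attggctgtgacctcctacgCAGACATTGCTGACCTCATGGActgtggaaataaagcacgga
The RHOT1 and RHOT2 stretches lie at different points of the 2 proteins and cover 13 bases, while the aligned coding sequences were 62.5% identical. TRAK1 and TRAK2 were 62.8% identical, also with a longest stretch of 13 bases. Among the kinesin-1 heavy chains, KIF5A and KIF5C were closest, at 74.0% identity and a shared stretch of 23 bases that lies at the same coding positions in both. KIF5B was 69.3% identical to KIF5A, with which it has the printed 14 bases in common. With KIF5C it was 71.2% identical and shared 17 bases, not printed here. KIF1B was 71.7% identical to its paralogue KIF1C, with 22 bases in common. With KIF1A it was 71.6% identical and shared 29 bases, not printed here, the longest stretch of the pairs compared. No stretch of 50 bases in any transcript of a member occurred in a transcript of another member.

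Matches outside the family were few. RHOT2, TRAK1, KIF5A and KIF5B had no 50-base stretch in a transcript of another gene on either strand. RHOT1 had the highest share, 5.23% of its 6995 stretches, mostly in the unnamed gene AC116407.1 and in the pseudogenes RHOT1P3 and RHOT1P1. KIF1B had 2.00% and SNPH 2.71%, the latter all in RAD21L1. Overlap along the genome was wide for TRAK2 and SNPH. TRAK2 has 85.7% of its span inside STRADB on the opposite strand, and its counts stayed close to those of STRADB, at 409 against 473 in control replicate 1 and 2288 against 2770 in control replicate 3. SNPH has 70.0% of its span inside RAD21L1 on the same strand, with 238, 290 and 848 counts against 245, 442 and 703 in the control and 108, 72 and 1196 against 154, 102 and 1087 in the mutant. Whether reads were counted by strand, or for more than 1 gene, was not given in the sources used here, so the values of TRAK2 and SNPH are uncertain.

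Total counts ran from 3287218 to 73331652 per library, and both replicate 3 libraries were the deepest. The libraries also differed in background, measured as the count density over 388 olfactory receptor genes, a family little transcribed outside the nose. That density predicted between 6.60% and 84.4% of all nuclear gene counts, lowest in both replicate 3 libraries (7.46% in the control) and highest in both replicate 2 libraries. Of 8 markers fixed for HEK cells, VIM, NEFL and NEFM lay over 2 times background in all 6 libraries. KRT8, KRT18 and CDH2 fell to 1.04, 1.12 and 1.06 times in their lowest library, and PAX2 and LHX1 to 0.908 and 0.752. All 8 lay over 2 times background in both replicate 3 libraries, against 4 in both replicate 2 libraries. Among 7 markers of mature neurons, MAP2 (0.805 to 1.16 times background) and RBFOX3 (1.33 to 1.73 times) stayed near background in all 6 libraries, while SYT1 reached 13.9 times and GAD1 10.7 times. In all, 5 of these 7 lay over 2 times background in both replicate 3 libraries, and at most 1 did in each of the others. Summed over the neuronal list, CPM (counts scaled to the normalised library size) ran from 208 to 692 in the control and from 366 to 650 in the mutant libraries. Over 2 markers of hepatocytes, 3 of muscle and 3 of fibroblasts, the highest multiple was that of COL1A1 (17.4), and the blood cell marker PTPRC stayed between 0.824 and 1.44 times background. The part of other cell types in the values below was not tested.

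Members stood above background to very different degrees, and the replicate number mattered more than the group. A multiple of background is the count of a gene divided by the olfactory receptor density times the gene's span, given with 95% exact Poisson intervals that cover counting error only. RHOT2 had the highest multiples. Its control libraries had 72.2 (replicate 1), 2.21 (replicate 2) and 355 (replicate 3) times the background, and its mutant libraries had 28.7, 4.07 and 268 times. KIF5B came next, with multiples of 10.2, 2.18 and 78.5 for the control and 3.19, 2.03 and 104 for the mutant. KIF1B had multiples of 6.49, 1.67 and 33.5 against 3.34, 1.44 and 50.9. For all 3 genes the replicate 3 libraries were far above the others, and the groups overlapped.

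The other 6 members were closer to background. Against the olfactory receptor density, these 6 lay between 8.54 (SNPH) and 17.8 (KIF5A) times background in control replicate 3. In mutant replicate 3 they lay between 11.0 (SNPH) and 24.7 (KIF5C) times background. These multiples depended on the genes taken as background. With keratin-associated, taste receptor and defensin genes in their place, SNPH lay at 0.867 times in control replicate 3, and SNPH (0.514), RHOT1 (0.637), KIF5A (0.764), TRAK2 (0.835) and TRAK1 (0.949) lay under 1 in mutant replicate 3. TAS2R14 held most counts of that set there, and without this gene the set predicted 15.9% of nuclear counts in control and 23.6% in mutant replicate 3, still above the 7.46% and 6.60% of the olfactory receptors. In replicate 2 the median member lay at 1.49 times background in the control and 1.32 times in the mutant. The background density alone predicted 93.9% of the RHOT1 counts in control replicate 2 (multiple 1.06, interval 0.979 to 1.16) and 97.0% of the TRAK2 counts in mutant replicate 2 (1.03). The interval reached down to 1 for RHOT1 in control replicate 2 and for TRAK2, KIF5A and SNPH in mutant replicate 2, so these mRNAs were not detectable above that background there. For the median member, background predicted 67.3% of the counts in control replicate 2 and 75.8% in mutant replicate 2, against 45.3% and 24.5% for RHOT2. In RHOT2 exons make up 85.0% of its 6.09 kb span, against 5.18% for TRAK1, whose span is 212.1 kb.

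**Figure D1:**
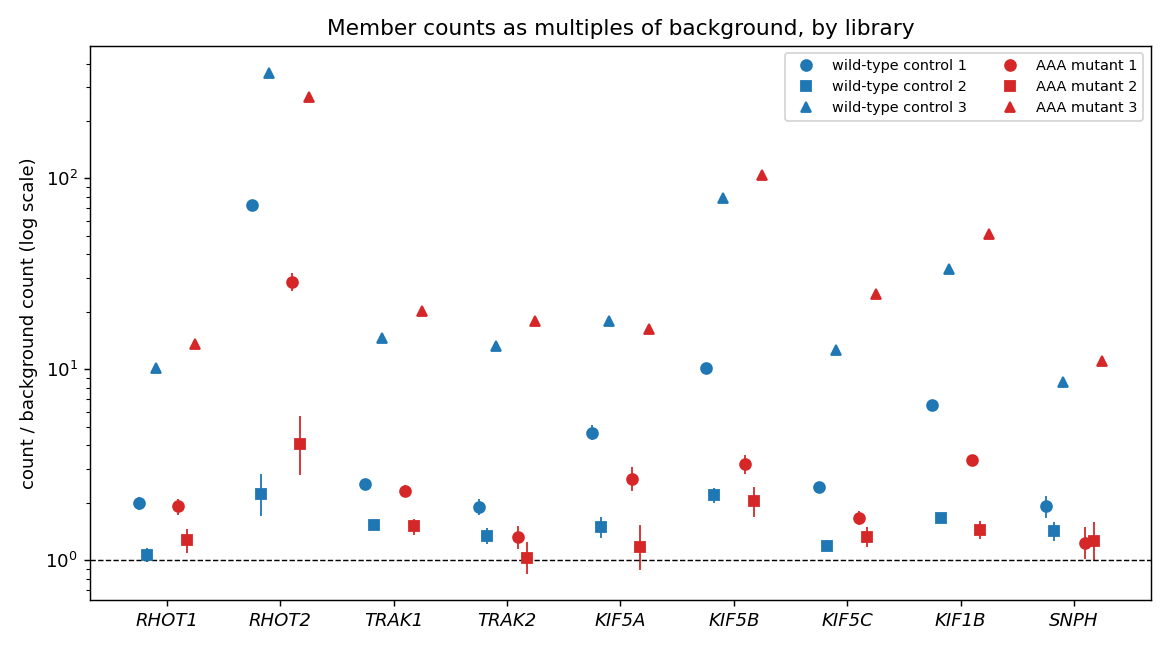
Counts of the 9 members divided by the background count expected for their span (log axis), with 1 point per library and 95% Poisson intervals that cover counting error only. Both replicate 3 libraries (triangles) lie highest for all 9 genes, and both replicate 2 libraries (squares) lie near the dashed line at 1 for most.

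Levels were compared between genes per length, as CPM (counts scaled to the normalised library size) above background per kb of exon. Background was the olfactory receptor density, and whether the order holds with another background set was not tested. KIF5B, the kinesin-1 heavy chain found in all cell types, had the highest mean, 17.7 ± 16.0 in the control and 15.2 ± 20.7 in the mutant libraries (SD, n = 3). In the order of the control means RHOT2 followed with 13.7 ± 11.8 and 7.79 ± 6.80, then KIF1B with 10.2 ± 7.70 and 9.72 ± 11.3. TRAK1 had 7.94 ± 5.85 against 8.79 ± 7.68 on that scale. In the mutant libraries the means of KIF1B and TRAK1 exceeded that of RHOT2, and that of TRAK2 (2.86) exceeded that of KIF5A (2.26). The control order went on with KIF5C (5.45 in the control), RHOT1 (4.20), KIF5A (3.60), TRAK2 (3.20) and SNPH (1.86). KIF5A, KIF5C and SNPH are known as neuronal genes. KIF5A and SNPH stood in the lower part of the order, while KIF5C stood above RHOT1 and TRAK2. Neighbours in this order differed by less than the larger of their SDs. KIF5B exceeded RHOT2 in 4 of 6 libraries, RHOT2 exceeded KIF1B in 3, and TRAK1 exceeded KIF5C in 5. KIF5B ranked first only in both replicate 3 libraries, while RHOT2 did in both replicate 1 and TRAK1 in both replicate 2 libraries. Whether intronic reads were counted is not stated, so this level may cover more than spliced mRNA.

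None of the 9 members differed between the mutant and the control by edgeR's quasi-likelihood test, in which 0% of all 33375 tested genes were called lower and 0% higher after Benjamini-Hochberg adjustment. At an unadjusted p under 0.05 there were 25 of all tested genes and 0 members with edgeR, and 70 genes with DESeq2 and 2 with limma-voom, again with no member. Libraries with the same replicate number deviated together, so they were also treated as pairs. That fit called 1.40% of tested genes lower and 0.00599% higher, and it again called 0 of 9 members, with a smallest adjusted p of 0.499 (KIF5A) and 0 members at an unadjusted p under 0.05. By sign, 6 members were below 0 and 3 above in both fits. The median over the members was −0.19 in the paired fit, against −0.08 over all tested genes and −0.51 over the 4419 tested genes whose counts lay on average over 8 times above background, among which are RHOT2 and KIF5B. At this spread a difference of the members was not detectable, which does not show that they were recovered alike, and the intervals below give the sizes that remain possible.

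The Miro GTPases had values on opposite sides of 0. RHOT1 (ENSG00000126858, chromosome 17, 32142454 to 32253374) had 45.9, 37.7 and 62.3 CPM in control replicates 1, 2 and 3, and 49.2, 43.2 and 70.9 in the mutant. Each mutant library lay slightly above the control library of the same number, with pair differences of 0.10, 0.20 and 0.19 on the log2 scale, and the groups overlapped. Its log2 fold change was 0.16 ± 0.60 (SE, n = 3 against 3) in the edgeR fit, and 0.16 ± 0.24 in the paired fit, with a 95% interval of −0.32 to 0.65.

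RHOT2 (ENSG00000140983, chromosome 16, 668086 to 674174) had 91.6, 4.29 and 120.2 CPM in the control, and 40.6, 7.62 and 76.6 in the mutant. It was lower in the mutant in pairs 1 and 3, by −1.17 and −0.65 on the log2 scale, and higher in pair 2, by 0.82, where the control library held 64 counts and the mutant library 33. The log2 fold change of RHOT2 was −0.79 ± 1.11, and −0.48 ± 0.29 in the paired edgeR fit (interval −1.08 to 0.11, adjusted p = 0.688). Of the 9 members it differed most between its lowest and highest library.

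The adaptors TRAK1 and TRAK2, which link Miro to the motors, had small values. TRAK1 (ENSG00000182606, chromosome 3, 42013802 to 42225889) had 110.9, 103.4 and 170.7 CPM in the control and 113.9, 97.9 and 202.1 in the mutant. Its pair differences of 0.04, −0.08 and 0.24 had no common direction, and the paired log2 fold change was 0.07 ± 0.29 (interval −0.51 to 0.65). TRAK2 (ENSG00000115993, chromosome 2, 201377207 to 201451579) had between 29.4 and 55.1 CPM in the control and between 22.8 and 62.3 in the mutant. The paired log2 fold change of TRAK2 was −0.19 ± 0.24 (interval −0.68 to 0.29), with pair differences of −0.37, −0.43 and 0.18.

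The 3 heavy chains of kinesin-1, the motor that carries mitochondria outward, did not share a pattern over the pairs. KIF5A (ENSG00000155980, chromosome 12, 57549998 to 57586632) had 35.5, 17.4 and 36.2 CPM in the control and 22.7, 13.2 and 28.1 in the mutant. It was lower in the mutant in 3 of 3 pairs, by −0.65, −0.40 and −0.36 on the log2 scale. The groups overlapped because control replicate 2 lay below mutant replicates 1 and 3. The log2 fold change was −0.47 ± 0.63, and −0.47 ± 0.23 in the paired edgeR fit (interval −0.94 to 0.00, unadjusted p = 0.0502, adjusted p = 0.499). In mutant replicate 2 its 57 counts were not distinguishable from background.

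KIF5B (ENSG00000170759, chromosome 10, 32009010 to 32056431) had 100.5, 33.0 and 207.1 CPM in the control and 35.1, 29.6 and 232.2 in the mutant. Control replicate 1 lay well above mutant replicate 1, and the libraries of pairs 2 and 3 lay close together, with pair differences of −1.52, −0.16 and 0.17. The log2 fold change of KIF5B was −0.20 ± 0.98, and −0.49 ± 0.31 in the paired fit (interval −1.12 to 0.14). Without pair 3 the paired value was −0.87, with an unadjusted p of 0.0341 and an adjusted p of 0.785 in edgeR, and without pair 1 it was −0.06, so pair 1 carried most of this difference.

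KIF5C (ENSG00000168280, chromosome 2, 148875250 to 149026759) had 75.7, 57.2 and 105.9 CPM in the control and 58.3, 61.4 and 175.5 in the mutant. It was highest in mutant replicate 3, with pair differences of −0.38, 0.10 and 0.73, and its paired log2 fold change was 0.16 ± 0.28 (interval −0.41 to 0.72). The antisense gene KIF5C-AS1 covers 8.96% of its span and had 813 counts in that library, against 9452 for KIF5C. KIF1B (ENSG00000054523, chromosome 1, 10210805 to 10381603) had the highest mean CPM of the members, though TRAK1 was higher in both replicate 2 libraries. It had 230.9, 91.1 and 318.1 CPM in the control and 132.6, 75.7 and 408.4 in the mutant. As for KIF5B, pair 1 lay below 0 and pair 3 above, at −0.80, −0.27 and 0.36. The paired log2 fold change of KIF1B was −0.23 ± 0.33 (interval −0.90 to 0.44). Without pair 3 it was −0.55 (edgeR, unadjusted p = 0.0495, adjusted p = 0.853), and without pair 1 it was −0.03.

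SNPH (ENSG00000101298, chromosome 20, 1266280 to 1309328), the anchor that holds axonal mitochondria in place, had the lowest mean CPM of the members, though RHOT2 and KIF5A were lower in both replicate 2 libraries. It ranged from 17.1 to 20.4 CPM in the control and from 12.3 to 22.2 in the mutant, and the groups overlapped. Its paired log2 fold change was −0.18 ± 0.24 (interval −0.67 to 0.31), with pair differences of −0.48, −0.22 and 0.12.

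**Figure D2:**
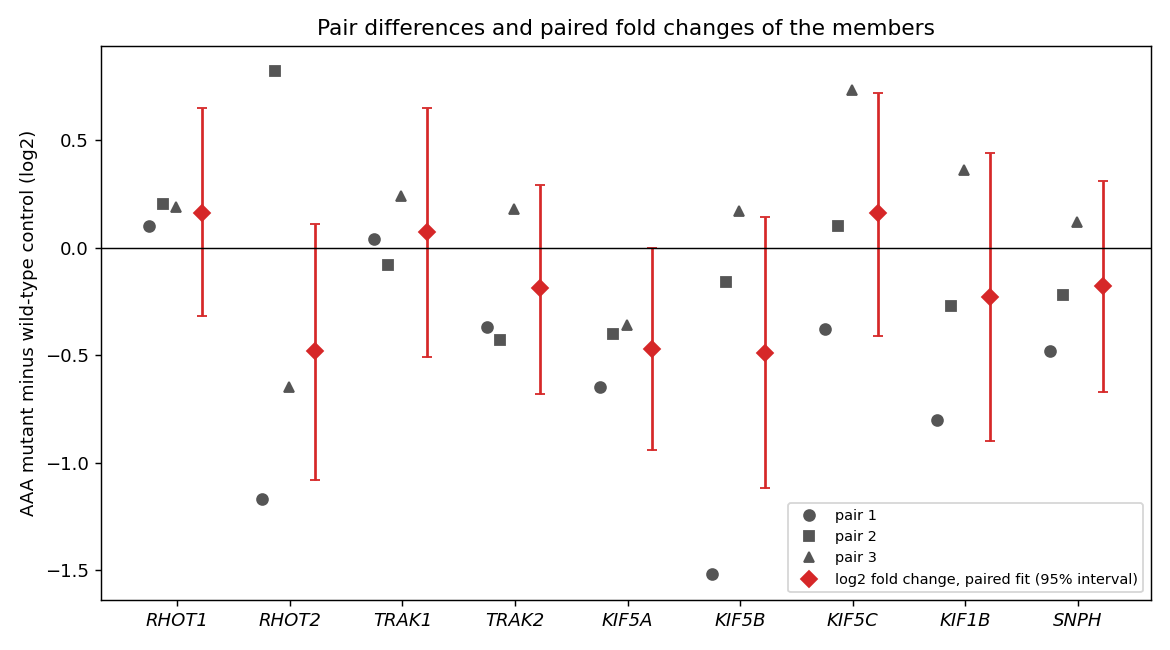
Mutant minus control on the log2 scale for each of the 3 pairs (grey) and the log2 fold change of the paired fit with its 95% interval (red). Every interval reaches 0, only RHOT1 and KIF5A have all 3 pairs on one side of 0, and RHOT2 and KIF5B have the widest spread of pairs.

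Ratios of members within a library need no scaling between libraries, so 5 ratios were tested with exact two-sided permutations of the libraries, for which 0.1 is the smallest possible p. RHOT1 had 0.501, 8.72 and 0.518 times the counts of RHOT2 in the 3 control libraries, and 1.21, 5.60 and 0.926 times those in the mutant libraries. The ratio thus tipped toward RHOT1 in the mutant in pairs 1 and 3, by 1.28 and 0.84 on the log2 scale, and toward RHOT2 in pair 2, by −0.64. In both replicate 2 libraries it moved toward the ratio of the gene spans (4.19 on the log2 scale). The mean log2 ratio was 0.39 ± 2.37 in the control and 0.88 ± 1.40 in the mutant (SD, n = 3; exact permutation p = 0.6, 0.75 adjusted over the 5 ratios).

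The ratio of KIF5C to KIF5B was higher in the mutant in 3 of 3 pairs, by 1.14, 0.26 and 0.56 on the log2 scale. Its mean was −0.19 ± 0.90 in the control and 0.46 ± 0.77 in the mutant (SD, n = 3), a difference of 0.65 (exact permutation p = 0.4, adjusted 0.75). TRAK1 to TRAK2 was also higher in 3 of 3 pairs, by 0.41, 0.35 and 0.07, with means of 1.75 ± 0.15 and 2.02 ± 0.31 (exact permutation p = 0.3, adjusted 0.75). KIF5A to KIF5B and KIF1B to KIF5B had differences of 0.04 and 0.27 (exact permutation p = 1 and 0.5, adjusted 1 and 0.75). Every difference except that of TRAK1 to TRAK2 was smaller than the SD of its control libraries. As pairs, an exact sign-flip test of 3 differences cannot give a p below 0.25, which is what KIF5C to KIF5B and TRAK1 to TRAK2 gave. With background subtracted the KIF5A to KIF5B difference reversed to −0.31, and those of TRAK1 to TRAK2 and RHOT1 to RHOT2 were 1.58 and 0.94. The 1.58 rested largely on mutant replicate 2, where TRAK2 held only 3.05 counts above background. There the log2 ratio was 5.54, against 3.55 and 1.71 in mutant replicates 1 and 3.

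**Figure D3:**
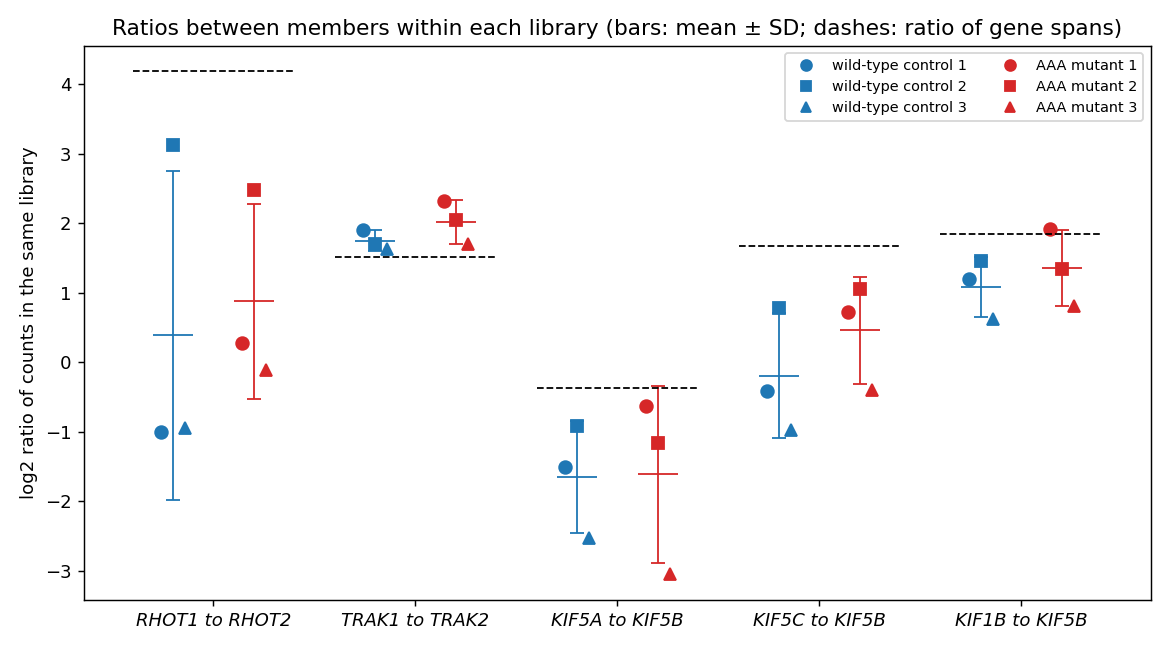
Log2 ratio of the counts of 2 members in the same library, with mean ± SD per group (n = 3) and the log2 ratio of their gene spans as dashes. The RHOT1 to RHOT2 ratio reaches 3.12, with both replicate 2 libraries nearest the dashes, and TRAK1 to TRAK2 keeps between 1.63 and 2.32.

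Among other genes of mitochondrial and microtubule transport, 2 fell in the paired fit, which called 1.40% of all tested genes lower. Counts of 1 call in a list of this size are near that background. DCTN1, the large subunit of dynactin that helps dynein bind microtubules, was the 1 gene called among 27 genes of dynein, dynactin and their regulators. It had 464.8, 37.9 and 464.8 CPM in the control and 93.4, 29.6 and 124.5 in the mutant, lower in the mutant in 3 of 3 pairs by −2.31, −0.36 and −1.90. Its paired log2 fold change was −1.56 ± 0.37 (edgeR, adjusted p = 0.0190). KIF1C, a kinesin-3 motor and paralogue of KIF1B, was the 1 gene called among 37 tested kinesins outside the members. It had 271.5, 30.1 and 308.6 CPM in the control and 91.8, 16.9 and 104.2 in the mutant, lower in 3 of 3 pairs by −1.56, −0.84 and −1.57. Its paired log2 fold change was −1.35 ± 0.31 (edgeR, adjusted p = 0.0149), against −0.23 ± 0.33 for KIF1B, a difference between genes that was not tested. Neither passed without the pairs (adjusted p = 1 in edgeR), and both calls were lost when scaling rested on genes far above background (−1.08 and −0.87, adjusted p = 0.67). Both were also lost when any 1 pair was left out, where values ran from −1.94 to −1.23 for DCTN1 and from −1.40 to −1.24 for KIF1C and adjusted p-values from 0.302 to 1, and with background subtracted (−1.47 and −1.42, adjusted p = 0.992). DCTN1 overlaps DCTN1-AS1 and the unnamed gene ENSG00000264324, so part of its counts could belong to those.

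KIF1A, the third kinesin-3 paralogue and a neuronal carrier of vesicles, had 280.3 ± 211.7 CPM in the control and 102.1 ± 48.4 in the mutant (SD, n = 3). Its paired log2 fold change was −1.11 ± 0.35, which did not pass (edgeR, adjusted p = 0.113). None of the 4 kinesin light chains passed, and KLC2 (−0.73 ± 0.26) and KLC4 (−0.79 ± 0.29) had the smallest paired p-values. KLC4 overlaps CUL7 and MRPL2. None of 20 partners and regulators of Miro and TRAK passed either, with VDAC1, the channel of the outer membrane (−0.71 ± 0.25), and MAPK8IP3, a kinesin-1 adaptor (−0.85 ± 0.32), first by p. The paired medians were −0.58 over the light chains, −0.35 over the partners, −0.30 over the dynein list and −0.13 over the other kinesins, beside −0.08 over all tested genes and −0.19 over the members. The share of genes far above background was 3 of 4 light chains, 8 of 20 partners, 10 of 27 dynein genes and 8 of 38 other kinesins, against 2 of 9 members.

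**Figure D4:**
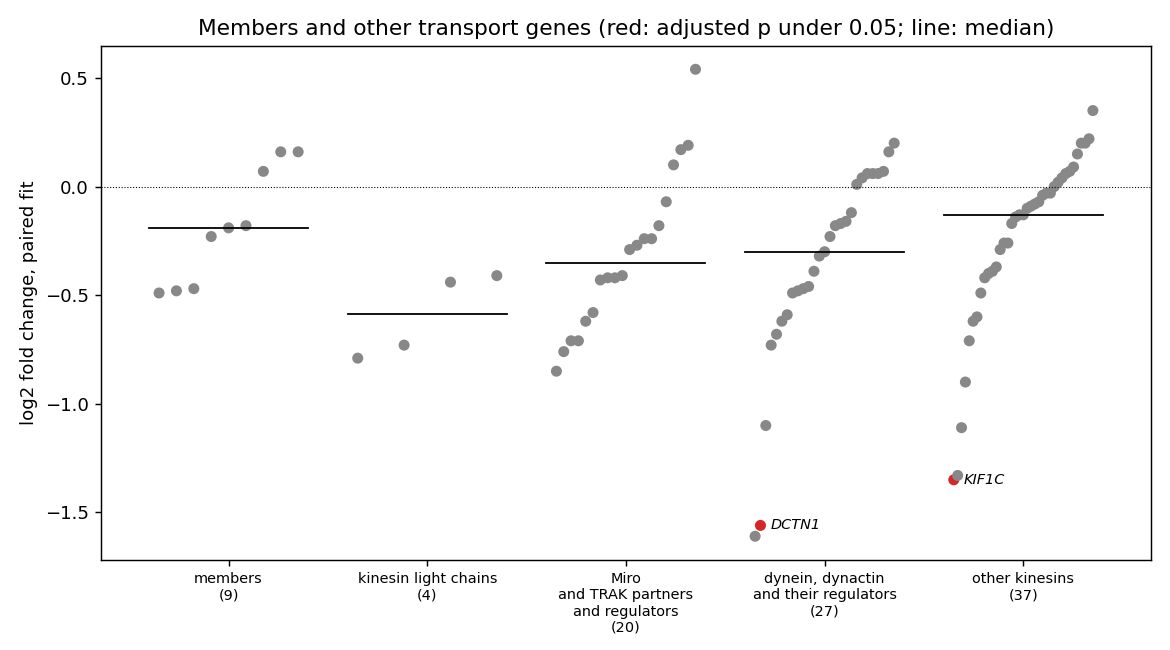
Log2 fold change in the paired fit for the 9 members and the tested genes of 4 transport lists, with the median of each as a line. DCTN1 and KIF1C, in red, are the genes with an adjusted p under 0.05, and the members lie between −0.49 and 0.16.

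Over the 6 libraries the members varied with the replicate number in unequal measure. The root mean square deviation of log2 CPM from a gene's own mean was 1.84 for RHOT2, 1.25 for KIF5B and 0.904 for KIF1B, against 0.274 for SNPH and 0.311 for RHOT1. Among 96 transport genes compared, the genes whose centred values lay nearest to RHOT2 were ACTR1B, a dynactin subunit (root mean square difference 0.307), and KLC2 (0.580). RHOT1 lay nearest to TRAK1 (0.130) and NDE1 (0.144), and KIF5C nearest to the dynein adaptor HOOK3 (0.0917). KIF5B was nearest to MYO19, the myosin that moves mitochondria on actin (0.276), KIF1B to the mitotic kinesin KIF11 (0.151), KIF5A to KIF17 (0.145) and SNPH to SYBU (0.149). TRAK1 lay as near to CAPZA2 as to RHOT1 (0.130 each), and TRAK2 nearest to HOOK3 (0.174). All these values share the same 6 libraries, with their common depth and background.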

How the data were processed

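The deposited table holds raw counts per Ensembl gene ID, whole numbers not normalized by the authors. FastQC, STAR (2.7.6a) and featureCounts are the tools named, per the submitters' processing notes. Build, annotation release, read length and strand setting were not given in the sources used here. Of all count rows, 0 lacked a gene ID. All 6 columns were mapped to samples by title. Symbols came from a gene ID table (60401 IDs), and spans, exons and coordinates from GENCODE release 29 on GRCh38 (58453 IDs). The members and gene lists were chosen with earlier results of these data known.

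Genes were tested with edgeR 4.0.16 (R 4.3.3): filterByExpr, TMM factors, the quasi-likelihood F test and Benjamini-Hochberg adjustment over all 33375 tested genes, threshold 0.05, 3 mutant against 3 control libraries without a block. The standard error is the fold change over the square root of F. CPM values use TMM-scaled library sizes, with a prior count of 1 on the log2 scale, while the marker sums used raw library totals. Deviations from the group means correlated between same-numbered libraries at r = 0.41, 0.76 and 0.90 across genes, each best with its own number. The pairing rests on this check, since the labels state none. Ratios used a prior count of 0.5. All members were named, with genes of 4 lists taken by call, or by smallest p where none was called. Alternatives were DESeq2 1.42.0, limma-voom (limma 3.58.1), other scaling factors, background subtraction, no filter and left-out libraries. The value of 1 marker gene is not reported here.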

Additional observations from a re-analysis of the deposited data

How the results depend on the processing

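No member was called under any setting run, with or without the block. With the replicate number as a block, 469 genes were called, 576 with DESeq2-type size factors, 312 with upper quartile factors, 4 with factors from genes far above background, and between 0 (without pair 3) and 259 (without pair 2) when 1 pair was left out, with 37 without pair 1. In the blocked fit 1 dynein gene and 1 other kinesin were called, 2 (with NDEL1) and 3 (with KIF22 and KIF1A) with DESeq2-type factors, 1 and 2 (with KIF22) with upper quartile factors, and 0 or 1 kinesin (KIF22) without 1 pair. The block changed no other call of a list.

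Signs of single members turned in several settings. With factors from genes far above background, which moved the median of all genes from −0.08 to 0.39 in the blocked fit, RHOT2 had 0.07, TRAK2 0.27, KIF5A 0.00, KIF1B 0.22 and SNPH 0.28. Without the block KIF5B had 0.11 and KIF1B 0.16 with these factors, KIF1B had 0.05 with upper quartile factors, and TRAK2 0.06, KIF5B 0.01 and KIF1B 0.13 without the filter on low counts.

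Leaving out 1 library gave −0.04 to 0.54 for RHOT1, −0.24 to 0.54 for TRAK1, −0.71 to 0.44 for TRAK2, −1.78 to 0.80 for KIF5B, −0.38 to 0.77 for KIF5C, −0.99 to 0.56 for KIF1B and −0.37 to 0.07 for SNPH. In the block without 1 pair, TRAK2 reached 0.08, SNPH 0.01, TRAK1 −0.03 and KIF5C −0.15. KIF5A ran from −0.76 to −0.04 and RHOT2 from −1.52 to 0.00, rounded. Without 1 library the ratio differences ran from −0.31 to 1.86 for RHOT1 to RHOT2, −0.46 to 0.75 for KIF5A to KIF5B and −0.01 to 0.54 for KIF1B to KIF5B. They ran from 0.27 to 1.15 for KIF5C to KIF5B and 0.12 to 0.44 for TRAK1 to TRAK2. With background subtracted the TRAK1 to TRAK2 difference was 1.58, resting largely on mutant replicate 2. Those of KIF5A to KIF5B and RHOT1 to RHOT2 with background subtracted were −0.31 and 0.94. The blocked values then were 0.87 for RHOT1, −0.10 for RHOT2, 0.18 for TRAK1, −1.15 for TRAK2, −0.79 for KIF5A, 0.33 for KIF5C and −0.65 for SNPH. The cause was not tested.

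By background, 2 members lay over 8 times above it on average, and 1 with keratin-associated, taste receptor and defensin genes as background. TAS2R14 held 34171 of the 38499 counts of that set in mutant replicate 3, and without it (chosen after seeing the data) the number was again 1.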
